A study of Drosophila melanogaster with 4 samples.

Results

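The transcripts described here are a block of consecutive FlyBase transcript identifiers, FBtr0072700 to FBtr0073150, that holds the gene of the membrane skeleton protein alpha-spectrin, alpha-Spec, on chromosome arm 3L of *Drosophila melanogaster*. The members are all table rows whose identifier number lies within these limits. The rule itself uses no measured value, but the block was proposed with earlier results of these data known. They are 334 of the 15634 rows of the whole table. The compared groups were Mbn2, a cultured line from l(2)mbn mutant larvae whose blood cells had turned tumorous, and Kc, a cultured line derived from embryos. Each line had 2 biological replicates, per the series' design text, and each replicate was hybridised to 1 NimbleGen array in Cy3. The cells of both lines were untreated. Mbn2 cells grew in M3+BPYE medium with 10% fetal calf serum and Kc cells in serum-free HyClone CCM3 medium, so that line and medium cannot be told apart. The design text does not say whether replicates came from separate cultures, and if they did not, the p-values measure a spread that may be technical.

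In *Drosophila* the annotation numbered many early transcript identifiers along the chromosome arms, so that neighbouring numbers often belong to neighbouring genes or to transcripts of the same gene. Alpha-spectrin pairs with beta-spectrins to form the elastic network beneath the plasma membrane, which links actin to membrane proteins. Spectrin is found in most fly cells, and alpha-Spec is the single alpha-spectrin gene of the fly, shared by the conventional and the heavy beta chain.

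The placement on distal 3L rested on few rows. Of the 44 rows of the table that RefSeq (assembly Release 6 plus ISO1 MT) could identify, 2 lay in the block and both belong to 3L. These were FBtr0072789, which is alpha-Spec, and FBtr0073063, which carries the reading frames of CG12016 and Dpm2. Between these identifiers the array table held 208 rows, and RefSeq lists 184 protein-coding genes between alpha-Spec and CG12016 on 3L. The nearest identified row before the block, FBtr0071680, belongs to 2R and the nearest after it, FBtr0074315, belongs to X. Where the numbers of 3L begin and end was therefore not fixed by these files. The other 332 members have no gene name here and are called by their identifiers. No blood cell, fat body, germline or neuron marker from the lists used was identified on the array, so the labels of the lines could not be checked against markers.

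Values are log2 RMA values, which ran from 3.93 to 15.9 over the table, with sample medians from 8.53 to 8.62. With 4 arrays in all, precision is limited. Differences are Mbn2 minus Kc. A difference is called where the limma p-value was under 0.05 after Benjamini-Hochberg adjustment across the 15634 rows. A row is called bright where its mean was over 9 in both lines and dim where its mean was under 6 in both lines. By these limits 166 members (49.7%) were bright and 82 (24.6%) dim, against 42.7% and 29.4% of all other rows. The remaining 86 members lay between. Replicates of the members differed by a median of 0.12 log2 units in Mbn2 and 0.12 in Kc.

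The identified members did not pass the test. The alpha-Spec transcript had values of 12.87 and 12.79 in Mbn2, against 13.06 and 12.98 in Kc. Both Mbn2 arrays lay just below both Kc arrays, but the difference was small, at -0.19 with a standard error of 0.10 (95% interval -0.45 to 0.07, limma adjusted p = 0.201). The transcript of CG12016 and Dpm2 had values of 9.77 and 9.88 in Mbn2, against 9.72 and 9.77 in Kc. CG12016 is listed under the synonym dNrk, and Dpm2 is named for a subunit of the enzyme that makes dolichol-phosphate mannose, the mannose donor of protein glycosylation in the endoplasmic reticulum. Both Mbn2 arrays lay above both Kc arrays by a narrow margin, with a difference of 0.08 (95% interval -0.18 to 0.34, limma adjusted p = 0.571). A single value cannot tell the frames of this transcript apart. Alpha-Spec was the 1 identified gene of a list of 7 membrane skeleton genes, so nothing can be said of its partners.

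Across the block, more transcripts were higher in Mbn2 than in Kc, whereas calls in all other rows leaned towards Kc. Of the 334 members, 96 (28.7%) were higher in Mbn2, where 21.2% of all rows were. In the other direction 58 members (17.4%) were higher in Kc, where 27.0% of all rows were. The other 180 members were not called. The 15300 other rows had 3218 calls towards Mbn2 and 4158 towards Kc. That lean turned to 3836 and 3527 of the 15300 when differences were measured from the median of bright rows. This centring moved every difference towards Mbn2. The block already leaned that way, so its lean, at 114 and 52 of the 334 members, could not have turned. With unmoderated variances 53 members were called towards Mbn2 (15.9%, against 11.3% of all rows) and 29 towards Kc (8.68%, against 13.6% of all rows). At least 2-fold differences were found for 48 members higher in Mbn2 (14.4%, against 10.5% of all rows) and for 21 higher in Kc (6.29%, against 10.2% of all rows). At least 8-fold differences between RMA values were near the background, with 10 members higher in Mbn2 (2.99%, against 2.80% of all rows) and 5 higher in Kc (1.5%, against 1.67%). Both Mbn2 arrays lay above both Kc arrays for 137 members (41.0%, against 32.0% of all rows), and both lay below for 102 (30.5%, against 40.4%).

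**Figure D1:**
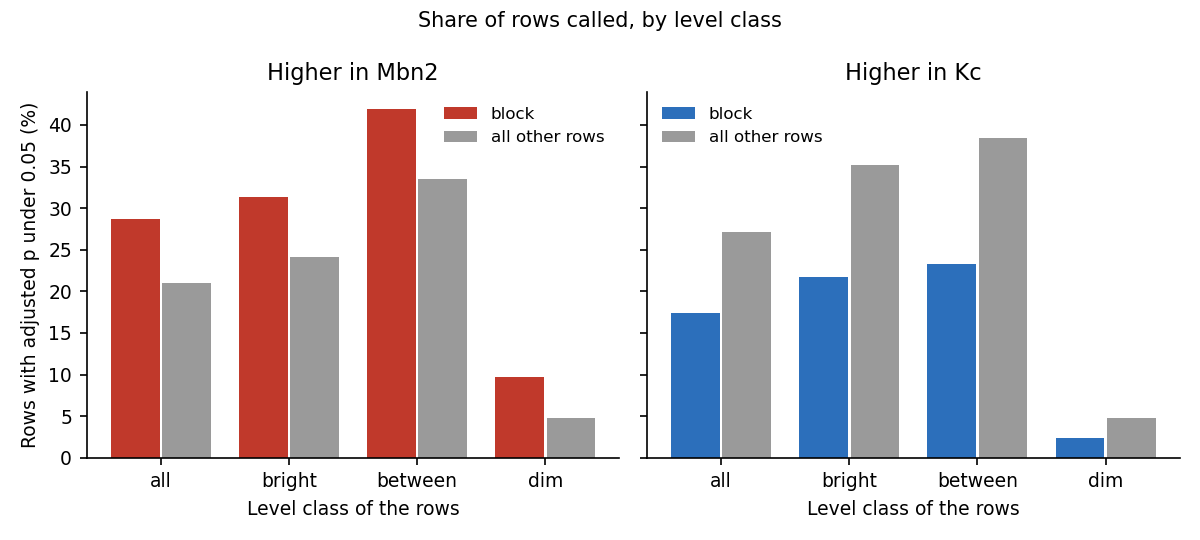
Percent of rows called higher in Mbn2 (left panel) and higher in Kc (right panel), with members of the block in colour and all other rows in grey, for all rows and for rows bright, between or dim. In each class the block had a larger share higher in Mbn2 and a smaller share higher in Kc than all other rows, for instance 31.3% against 24.1% and 21.7% against 35.2% among bright rows.

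The lean of the block was seen in each class of level. Among bright members 52 of 166 (31.3%) were higher in Mbn2, where 24.3% of all bright rows were, and 36 (21.7%) were higher in Kc, where 34.9% of all bright rows were. Among members between the limits 36 of 86 were higher in Mbn2 (41.9%, against 33.5% of all other rows between them) and 20 higher in Kc (23.3%, against 38.5%). Dim members were rarely called, with 8 of 82 higher in Mbn2 (9.76%, against 4.73% of all other dim rows) and 2 higher in Kc (2.44%, against 4.84%).

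The median difference was 0.06 over the 334 members and -0.05 over all other rows. Among bright rows it was 0.05 over the members and -0.12 over all other rows. The median difference of all bright rows, members included, was -0.11. Measured from that centre, the bright members had a median of 0.16. Their uncentred median was 0.08 without Kc replicate 1 and 0.02 without Kc replicate 2. It was 0.08 with the limits of the block moved in by 50 numbers and 0.03 with them moved out. The quartiles of the members' differences were -0.22 and 0.50, and those of all other rows were -0.44 and 0.28.

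The shift was also described array by array. Each row was set against its own mean over the 4 arrays, and the median of all other rows was subtracted from that of the members. The result was 0.06 and 0.06 in Mbn2, against -0.07 and -0.07 in Kc. The arrays of a line were close to each other and those of the lines did not overlap, with a difference of 0.13. Deviations of a row from its own mean cancel out, so the opposite signs of the lines only restate the line difference. What the single arrays add is the closeness of the replicates. With 2 against 2 arrays an exact two-sided permutation test cannot go below p = 0.333, which is what it gave. Members are neighbours and not replicates, and the shift was not tested in any other way.

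The window medians of the block varied along the numbering. Members were put in the order of their identifier number and divided into 6 windows of 50 and a last one of 34. The median difference of bright members was -0.19, -0.07 and -0.23 in the first 3 windows, and 0.11, 0.29, 0.08 and 0.21 in the next 4. For bright members the sign of the window median thus turned at the border between FBtr0072899 and FBtr0072900, which is set by the window size. Over all members the window medians were -0.06, -0.13 and 0.02, and then 0.27, 0.20, 0.12 and 0.04, so that the third window was already above 0. Measured from the centre of all bright rows, the second window turned positive, at 0.04, and the third was at -0.12. Alpha-Spec lies in the second window and the transcript of CG12016 and Dpm2 in the sixth.

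The block was then divided at that border. From FBtr0072900 on there were 184 members, with 66 calls towards Mbn2 (35.9%, against 21.2% of all rows) and 26 towards Kc (14.1%, against 27.0% of all rows). Of the 150 members up to FBtr0072899, 30 were called towards Mbn2 (20.0%) and 32 towards Kc (21.3%), near the share of all rows towards Mbn2 and below it towards Kc. Bright members had a median difference of -0.19 in the first stretch (72 members) and 0.19 in the second (94 members). Measured from the centre of all bright rows these medians were -0.08 and 0.30. The border was chosen after the values were seen, so the contrast of the stretches is a description with no test.

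Array by array, the bright members of the second stretch lay above their own 4-array means by a median of 0.11 and 0.10 in Mbn2, against -0.07 and -0.12 in Kc. In the first stretch the medians were -0.08 and -0.07 in Mbn2, against 0.09 and 0.06 in Kc. Since the stretches were divided where the bright median changed sign, the order of the lines in each follows from that choice, and these values only describe the arrays.

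**Figure D2:**
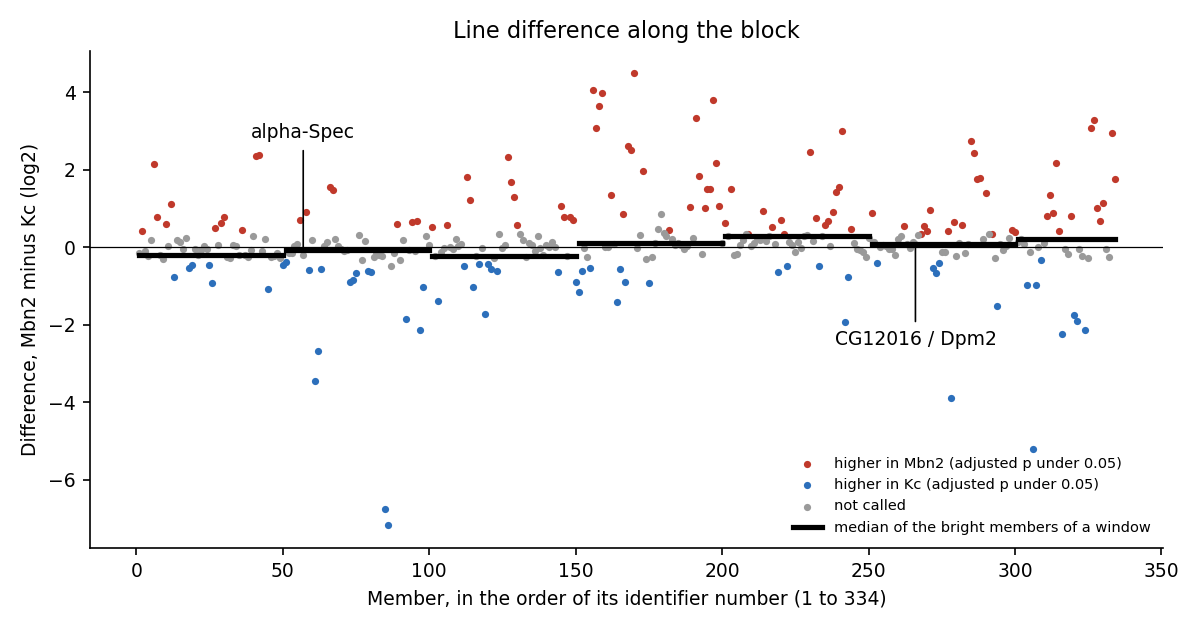
Difference between the lines (Mbn2 minus Kc, log2) of each of the 334 members in the order of their identifier numbers, coloured by call, with a black bar at the median of the bright members of each window. The bars lie below 0 in the first 3 windows, from -0.23 to -0.07, and above 0 in the next 4, from 0.08 to 0.29. Measured from the centre of all bright rows, the second bar lies at 0.04.

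Dim members, which were rarely called, were unevenly spread along the order. The third window, FBtr0072841 to FBtr0072899, held 23 dim members of 50, whereas the fourth held 7 of 50 and the last window 3 of 34. The fourth window, FBtr0072900 to FBtr0072969, had the largest count of at least 2-fold differences towards Mbn2 among the 7 windows, at 18 of 50, with 2 towards Kc, where 10.5% and 10.2% of all rows had such differences. Against the same shares, the first window had 4 of 50 towards Mbn2 and 1 towards Kc, and the second had 2 of 50 towards Mbn2 and 7 towards Kc. The 18 rows of the fourth window included groups of 4, 3, 2 and 6 neighbouring rows, which may not be separate genes.

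**Figure D3:**
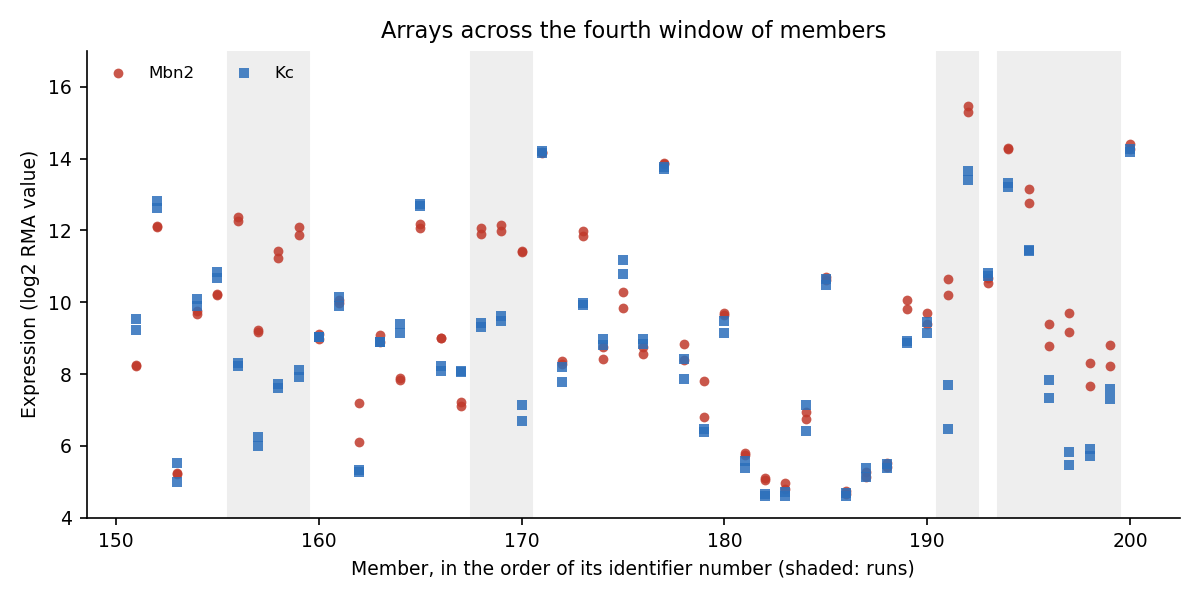
Log2 RMA value of each member of the fourth window on each array, in the order of the identifier numbers, with Mbn2 arrays as circles and Kc arrays as squares. Shaded spans mark runs of neighbouring members at least 2-fold higher in Mbn2, where the circles stand apart from and above the squares.

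Large differences often fell on neighbouring members. A run is counted where neighbouring rows were all called with at least 2-fold differences in the same direction. Of the 69 members with such a difference, 44 (63.8%) lay in 16 runs, where 48.0% of such rows did over the whole table. Of the runs, 12 were towards Mbn2 and 4 towards Kc, and over all rows there were 316 runs towards Mbn2 and 280 towards Kc. The differences of neighbouring members correlated at r = 0.42 (Spearman's rho 0.34, 333 pairs), and those of neighbouring rows over the whole table at r = 0.31 (rho 0.33, 15633 pairs). The pairs overlap and share the 4 arrays, so these values only describe the order. Since rows have no names here, runs of neighbouring genes and of several transcripts of 1 gene cannot be told apart.

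The run FBtr0072905 to FBtr0072908 held 4 consecutive numbers, all far higher in Mbn2. FBtr0072905 had values of 12.39 and 12.26 in Mbn2, against 8.32 and 8.21 in Kc, which are 4.06 ± 0.11 apart (difference ± standard error, limma adjusted p = 5.63e-06). FBtr0072908 had values of 12.10 and 11.87 in Mbn2, against 8.12 and 7.91 in Kc. FBtr0072907 had values of 11.42 and 11.22 in Mbn2, against 7.62 and 7.72 in Kc. On each of these 3 rows the Mbn2 arrays lay more than 3 log2 units above the Kc arrays. FBtr0072906 was weaker on the arrays in both lines, at 9.23 and 9.18 in Mbn2, against 6.25 and 5.99 in Kc. The differences within the run ranged from 3.09 to 4.06.

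A few numbers further on, the run FBtr0072918 to FBtr0072921 held 3 rows. FBtr0072921 had the largest difference towards Mbn2 of all 334 members, at 4.49 with a standard error of 0.16, from 11.40 and 11.42 in Mbn2, against 6.71 and 7.13 in Kc. FBtr0072918 was bright in both lines, at 11.89 and 12.06 in Mbn2, against 9.43 and 9.30 in Kc, and was 6.10-fold higher in Mbn2. The middle row, FBtr0072920, which was chosen after its values were seen, was near it, at 11.99 and 12.16 in Mbn2, against 9.49 and 9.62 in Kc. All 3 rows kept the Mbn2 arrays clear of the Kc arrays.

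The end of the fourth window held the longest run of the block, 6 rows from FBtr0072956 to FBtr0072968, with differences of 1.02 to 3.79. The row farthest apart was FBtr0072963, at 9.18 and 9.69 in Mbn2, against a dim 5.82 and 5.46 in Kc. It was the single member of 334 with a mean under 6 in Kc and over 9 in Mbn2, where 173 of all 15634 rows had such means. Just before this run, FBtr0072951 was among the 3 members with the highest mean value and was 3.58-fold higher in Mbn2, at 15.29 and 15.45 in Mbn2, against 13.67 and 13.40 in Kc. Its neighbour FBtr0072950 had values of 10.19 and 10.65 in Mbn2, against 7.70 and 6.47 in Kc. The Kc arrays of FBtr0072950 were over 1 log2 unit apart, and its difference of 3.34 had a standard error of 0.41 (limma adjusted p = 0.00137, and 0.0915 without moderation of the variances).

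Near the end of the block lay the bright members with the largest differences towards Mbn2. FBtr0073143 had values of 15.57 and 15.46 in Mbn2, against 12.24 and 12.21 in Kc. The difference was 3.29 ± 0.10 (standard error), or 9.76-fold (limma adjusted p = 9.07e-06). Its neighbour FBtr0073142 was 8.47-fold higher, at 14.81 and 14.76 in Mbn2, against 11.75 and 11.65 in Kc. FBtr0073144, the last row of that run and outside the rule for named members, was 2.04-fold higher. FBtr0073145, one of the 3 members with the highest mean, was 1.59-fold higher, at 15.19 and 15.03 in Mbn2, against 14.56 and 14.31 in Kc. Its limma adjusted p was 0.00901, and 0.109 without moderation of the variances and 0.0521 without Mbn2 replicate 1. So 4 consecutive numbers moved the same way by very different amounts.

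**Figure D4:**
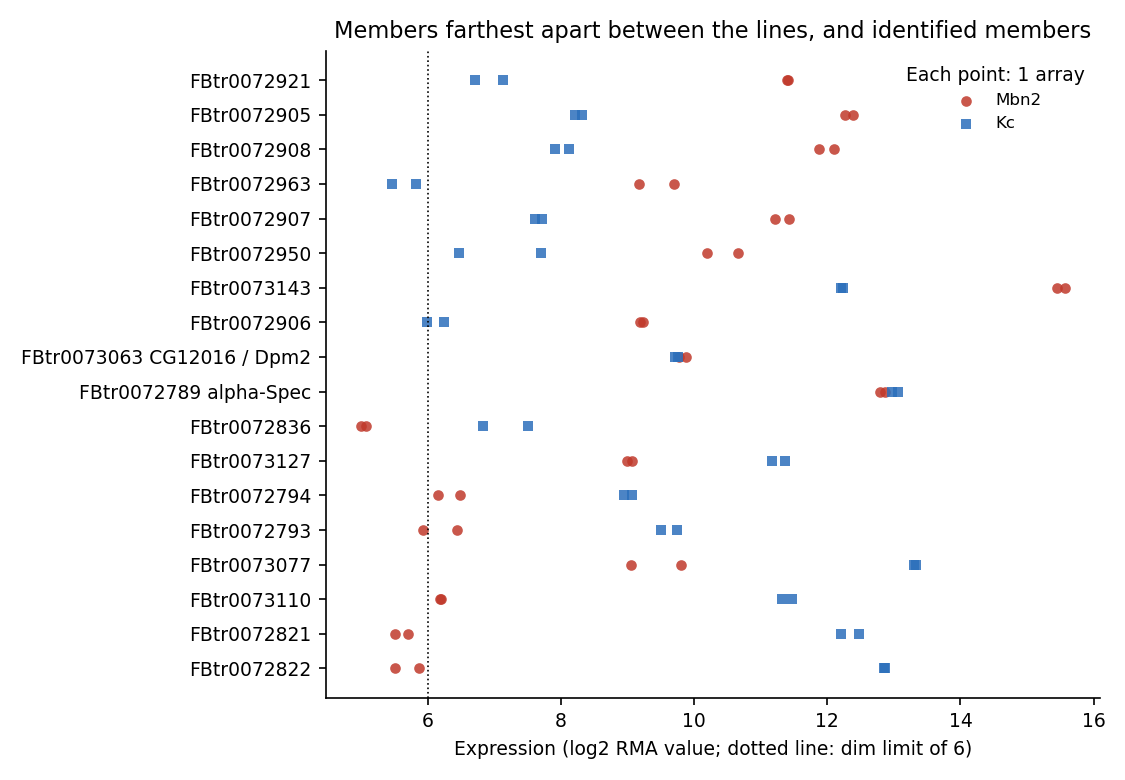
Log2 RMA values on the 4 arrays (Mbn2 circles, Kc squares) of the 8 members per direction with the largest called differences and of the 2 identified members, in the order of the difference. The members at the top lie far to the right in Mbn2, those at the bottom far to the right in Kc, and the points of alpha-Spec and of CG12016 with Dpm2 nearly meet.

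The largest differences of the block were towards Kc and fell on neighbours in the second window. FBtr0072822 had values of 5.50 and 5.87 in Mbn2, against 12.85 and 12.87 in Kc, a difference of -7.17 ± 0.15 (standard error) between RMA values (limma adjusted p = 3.68e-06). FBtr0072821 had values of 5.70 and 5.50 in Mbn2, against 12.48 and 12.21 in Kc, a difference of -6.74. These were the 2 members of 334 with a mean over 9 in Kc and under 6 in Mbn2, where 114 of all 15634 rows had such means. The files give no background level, so a fold is not given where a line was dim. Alpha-Spec lies 32 numbers before the nearer of them, and its own difference towards Kc was small, at -0.19, and not called.

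Closer to alpha-Spec, FBtr0072793 and FBtr0072794 formed another run towards Kc. FBtr0072793 had values of 6.44 and 5.93 in Mbn2, against 9.51 and 9.74 in Kc. FBtr0072794 had values of 6.49 and 6.16 in Mbn2, against 9.07 and 8.94 in Kc. The identifiers lie 4 and 5 numbers after that of alpha-Spec, whose own difference was -0.19. FBtr0072836 was dim in Mbn2, at 5.0 and 5.08, against 7.51 and 6.83 in Kc. Its difference of -2.13 had a limma adjusted p of 0.00086, and 0.0723 without moderation of the variances.

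In the second stretch, where most calls were towards Mbn2, there were also large differences towards Kc. FBtr0073110 had values of 6.20 and 6.19 in Mbn2, against 11.31 and 11.47 in Kc, a difference of -5.20. FBtr0073077 was bright in both lines, at 9.80 and 9.06 in Mbn2, against 13.30 and 13.34 in Kc, and was 14.8-fold higher in Kc. FBtr0073127 was 4.71-fold higher in Kc, at 8.99 and 9.07 in Mbn2, against 11.17 and 11.36 in Kc. FBtr0073033 was 3.83-fold higher in Kc, at 10.43 and 10.02 in Mbn2, against 12.31 and 12.02 in Kc, with a limma adjusted p of 0.0005, and 0.0573 without moderation of the variances. None of these 4 members belonged to a run.

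Among the 3 members with the highest mean, FBtr0073040 was the one not called, at 15.30 and 15.19 in Mbn2, against 15.50 and 15.48 in Kc (difference -0.25, 95% interval -0.51 to 0.01, limma adjusted p = 0.102). The levels of different rows come from different probes, so their order says nothing about which transcript is more abundant.

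The first rows of the block were close between the lines and the last rows were not. FBtr0072703 was not called, at 11.10 and 11.23 in Mbn2, against 11.39 and 11.24 in Kc. FBtr0072706 was 1.35-fold higher in Mbn2, at 12.56 and 12.54 in Mbn2, against 12.06 and 12.19 in Kc, and its limma adjusted p, 0.0194, was 0.0758 without Kc replicate 1, 0.0888 without Mbn2 replicate 1 and 0.0814 without Mbn2 replicate 2. With unmoderated variances it was 0.0663. At the other end, FBtr0073149 had values of 11.03 and 11.09 in Mbn2, against 8.16 and 8.03 in Kc, and FBtr0073150 had 13.10 and 13.17 in Mbn2, against 11.51 and 11.25 in Kc. The run these form ended at the limit of the block. The next row, FBtr0073151, had 13.81 and 13.96 in Mbn2, against 13.89 and 14.12 in Kc (limma adjusted p = 0.492). The row after it, FBtr0073152, was lower in Mbn2, with a difference of -0.54. Before the block, FBtr0072697 was lower in Mbn2 as well, with a difference of -0.45.

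Set among windows of the same width over the whole table, the block was on the high side but not at the top. The numbering was divided into windows as wide as the block, laid end to end from it, and 46 windows held at least 50 bright rows. Their bright medians ran from -0.45 to 0.25, and 10 were above 0. The block, at 0.05, ranked 10 from the top. By the median over all rows of each of these windows, the block, at 0.06, ranked 6 from the top. The window before it, FBtr0072249 to FBtr0072699, had a bright median of -0.31, and 30.1% of its bright rows had a positive difference, against 54.8% in the block. The window after it, FBtr0073151 to FBtr0073601, had a bright median of 0.09 and 61.1% positive. The contrast with the window before the block was thus larger than that with the window after it. These ranks describe the 4 arrays and carry no test.

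**Figure D5:**
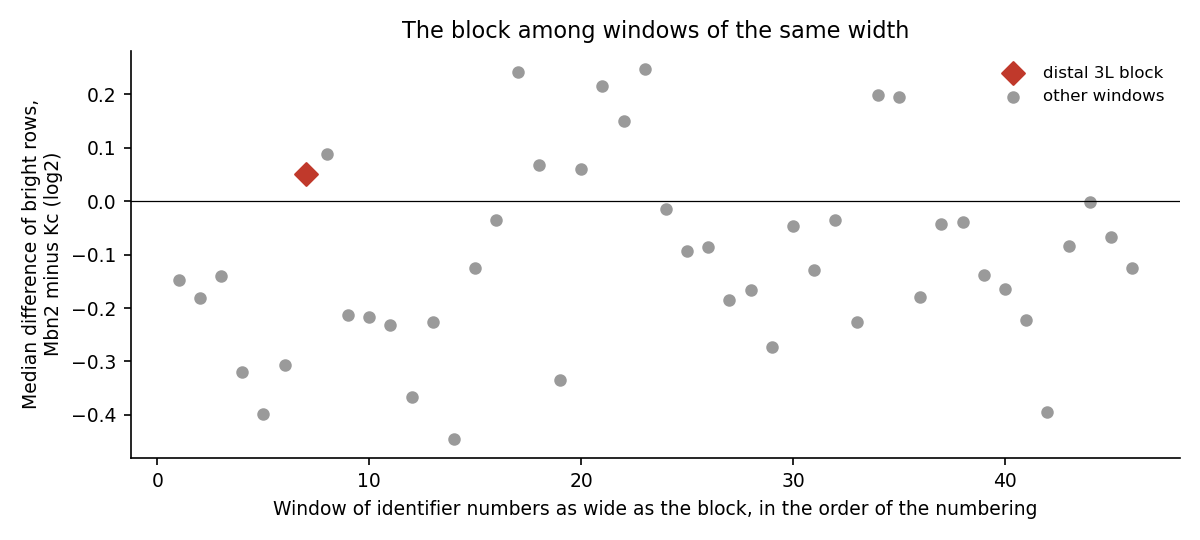
Median difference (Mbn2 minus Kc, log2) of the bright rows in each of the 46 windows of the same width, in the order of the numbering, with the distal 3L block as a red diamond. The block lies at 0.05, between a window at -0.31 and a window at 0.09.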

How the data were processed

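The deposited values are log2 levels of each transcript on each array, and the authors used RMA to make them, per the submitters' processing notes. RMA normally equalises the distributions of arrays, so differences in total RNA signal are lost. The RMA settings, genome build and annotation release were not given in the sources used here, and no coordinates or sequences are printed. Mbn2 and Kc were compared by limma 3.58.1 under R 4.3.3, with lmFit followed by a two-sided eBayes test of the 4 samples over all 15634 rows and no covariate. The test was checked on simulated data drawn with its own fitted spread, which cannot show whether the spread of the real replicates is technical. Alternatives changed the variance model, normalization, centring, row filters, log scale, replicates, thresholds and block limits. The members, lists and limits were chosen with earlier results of these data known. The 28 members named by rule are those with a RefSeq symbol, the 8 per direction farthest apart among calls, the 3 with the highest mean, the first 2 and last 2 rows, and the 3 bright calls per direction farthest apart. Of the 9 lists of genes and markers, 3 had an identified row, 1 each, and only alpha-Spec lay in the block. The textbook list for distal 3L had HDAC3 alone, which RefSeq places on 3R.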

Additional observations from a re-analysis of the deposited data

How the results depend on the processing

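With no moderation of the variances, 53 members were called towards Mbn2 and 29 towards Kc, 30 and 13 of them at least 2-fold apart. Under treat against a fold of 1.5, 46 and 19 were called. For the counts of called members in this section, other than 53 and 29, shares over all rows were not computed. Those counts therefore cannot be set against the whole table. With rows below the median left out, 192 members remained, and 28 and 13 of these were called at least 2-fold apart. The median difference of members was 0.172 when centred on bright rows and 0.0862 with rows of mean under 6 left out. The bright median was 0.163 when centred, 0.0835 with the limits moved in by 50 numbers, 0.0293 with them moved out, 0.0743 with bright set at over 8 and 0.0409 at over 10. The median of members minus that of all other rows, 0.109, was 0.0814 with log2(value + 16), 0.187 with rows below the median left out, 0.202 with rows of mean under 6 left out and 0.0954 with the limits moved out. Leaving out single replicates, which lends the remaining sample of a line the spread of the other line, gave 80 to 87 calls towards Mbn2 and 42 to 50 towards Kc, 44 to 48 and 18 to 24 of them at least 2-fold apart. It gave medians of 0.0654 to 0.0854 for members. For bright members it gave 0.0205, without Kc replicate 2, to 0.0772, without Kc replicate 1. It gave 0.101 to 0.154 for members minus all other rows, the highest without Kc replicate 1. The deviations of same-numbered samples from their line means had r = -0.048 over all rows. No shared effect of the replicate number was seen in this value. It cannot exclude one, nor settle whether the samples were handled in pairs. A replicate block gave 91 calls towards Mbn2 and 56 towards Kc. Of the alternative values of the 28 named members, 319 kept direction and side of the threshold, 9 lost a call and 3 gained one, all 3 for FBtr0073040. Many of the 28 were named for large called differences on the same arrays, so this tally says little about other members. No signal over background was used, so the floor of dim rows is unknown.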
